A study of Mus musculus with 6 samples.

Results

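The genes described here encode the enzymes that make and use glutathione and that remove reactive oxygen species. They are the cytosolic, kappa class and microsomal glutathione transferases, the glutathione peroxidases, the peroxiredoxins with sulfiredoxin, the thioredoxins with their reductases, the superoxide dismutases and catalase, the enzymes of glutathione synthesis and reduction, and Nqo1, Hmox1 and Hmox2. They were chosen by symbol from the platform annotation, with earlier results of these data known. Gpx5, a peroxidase secreted in the epididymis, was left out by the same rule. Of 18193 genes that had probe sets of 1 symbol, 50 were members, and 47 of these were among the 13453 genes that passed a filter on low values and were tested. Gsta2, Gsto2 and Gstt4 lay below the filter and are given by their values alone. Prdx1 and Gsta1 were read only by probe sets that list several genes and are no members, and Prdx5 and Prdx6 were not analysed here.

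Total RNA came from the epididymal fat pad of male C57BL/6 mice aged 16 weeks on chow, taken in the fed state. The 3 control arrays are labelled FTO flox/flox, so control mice carried floxed alleles of Fto, an RNA demethylase gene, and the labels give them no Cre. The 3 AFO arrays are labelled Adiponectin-cre FTO flox/flox, which adds a Cre recombinase under adiponectin regulatory sequence, a promoter known for its activity in fat cells rather than in the vessel, immune and mesothelial cells of the pad. Each array holds an independent RNA pool, numbered 1 to 3 in each genotype, and how many mice made a pool is not given in the sources used here.

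Glutathione is a tripeptide that glutamate-cysteine ligase and glutathione synthetase build and glutathione reductase regenerates from its oxidised form. Glutathione transferases attach it to reactive lipids and drugs, and glutathione peroxidases and peroxiredoxins use thiols or selenium to reduce peroxides. The transcription factor Nfe2l2 (NRF2), held back by Keap1, drives many of these genes through the antioxidant response element. In fat these enzymes meet large amounts of oxidisable lipid, and Gsta4 is known for removing hydroxynonenal, a product of lipid peroxidation.

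Each value is a log2 expression level, and the median of an array lay between 5.35 and 5.43. Values are given in the order of pools 1, 2 and 3, and a difference is AFO minus control with the standard error (SE) of the unpaired limma fit. With 3 arrays a genotype, precision is low throughout. A level depends on the probes of a probe set, so levels of different genes are not ranked. Fat cell markers were high on all arrays, with the log2 of the summed linear level of 8 genes at 15.46 to 15.53 in control and 15.16 to 15.57 in AFO fat. The Fto probe set above the filter differed by -0.12 (95% interval from -0.71 to 0.47), so it gives no check of the genotype labels, and where it lies relative to the floxed exon is not given in the sources used here. The largest axis of variation between arrays (67.6% of the variance) split pool 2 of either genotype from pools 1 and 3, with less mesothelial and more lymphocyte signal in pool 2. Skeletal muscle genes were high in control pool 2 and in AFO pools 1 and 2. The mu class results, and other member differences that moved most, are given with and without pool 2. RNA was taken from whole tissue, so fewer cells of a type and less RNA per cell cannot be told apart.

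None of the 47 tested enzymes passed limma's unpaired test of AFO against control fat at an adjusted p of 0.05. The same test called 0 of all 13453 genes, a background of 0% called, with 139 genes (1.03%) and 0 members at an unadjusted p under 0.05. The adjusted p was 0.999999 for every member. Of the members 18 read higher and 29 lower in AFO fat, with a median difference of -0.030 log2 units beside -0.014 over all tested genes. The share of higher members moved from 38.3% to 44.7% when the deposited values were quantile normalised once more. Differences ran from -0.33 for Mgst3 to 1.26 for Gstm6. Only Gstm5 and Gstm6 differed by over 0.5, which is 4.26% of the tested members where 2.65% of all genes did, and both passed 1, as 0.959% of all genes did. Gstm6 entered these counts only through the AFO arrays on which it was high. Within pools 1, 2 and 3 the members' medians were 0.066, -0.11 and -0.0098, and those of all genes 0.025, -0.023 and -0.038. The members' median was 0.065 without AFO pool 2 and -0.13 without control pool 2 or without AFO pool 1.

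**Figure D1:**
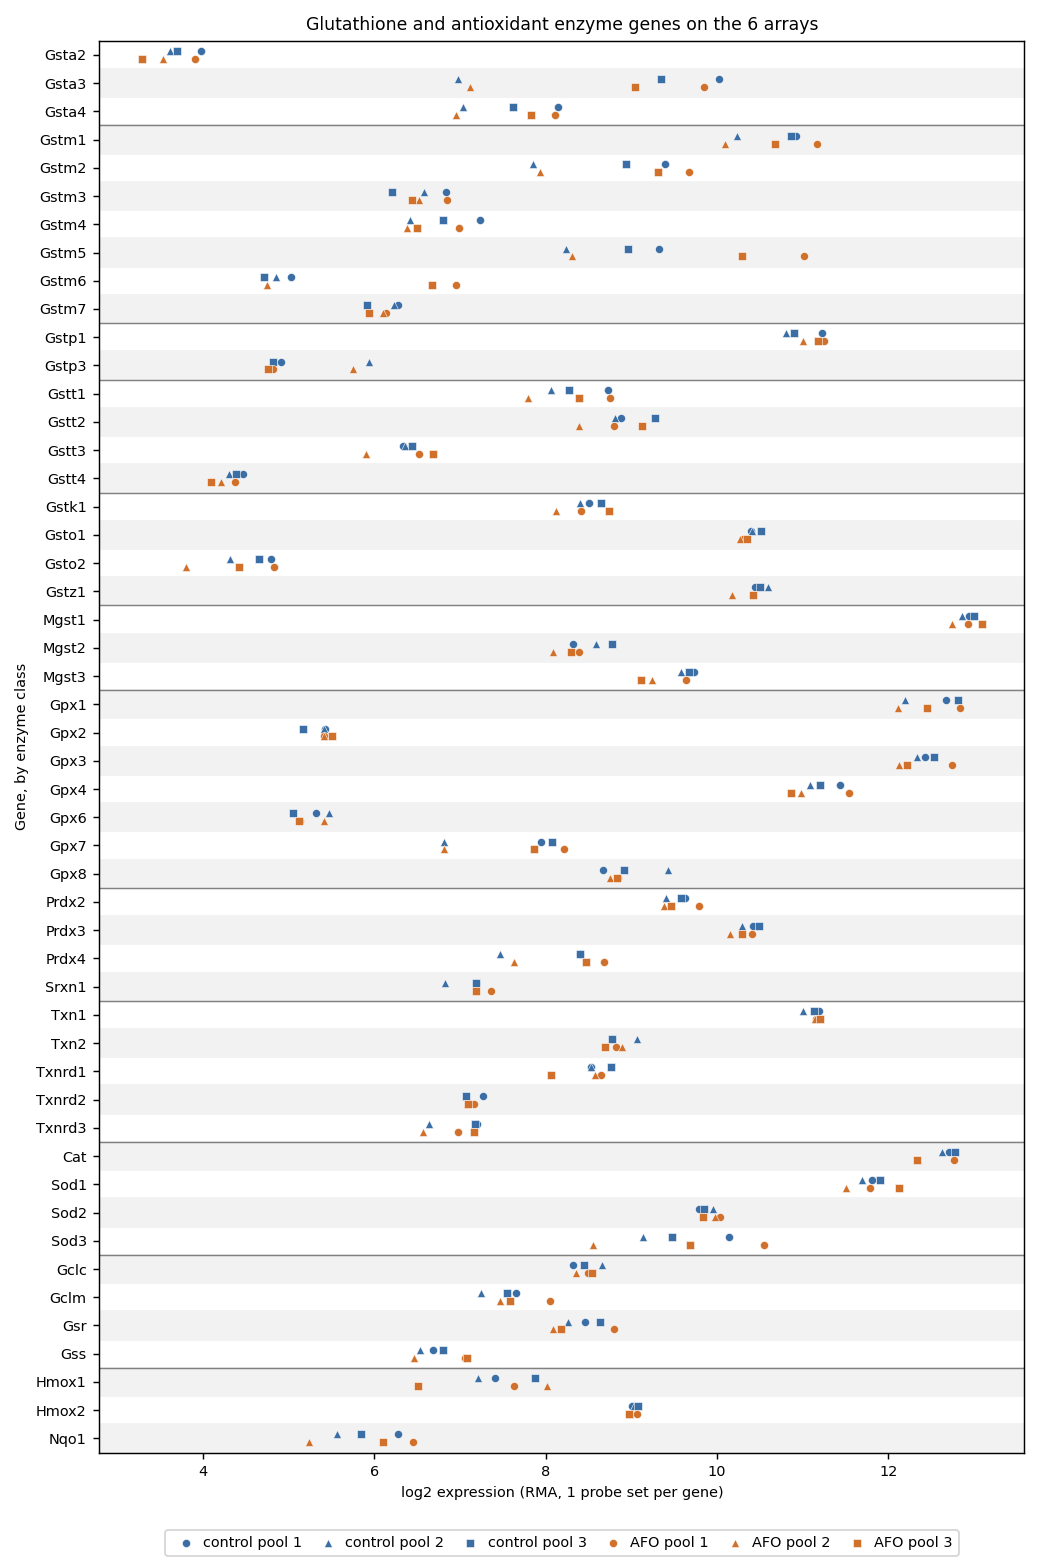
Log2 expression (x axis) of the 50 member genes (y axis, grouped by enzyme class between the grey lines) on each array, with control in blue, AFO in orange, and circles, triangles and squares for pools 1, 2 and 3. The genotypes overlap in nearly every gene, the orange circle and square stand to the right for Gstm5 and Gstm6, and both triangles stand to the left for Gsta3, Gstm2 and Gpx7.

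**Figure D2:**
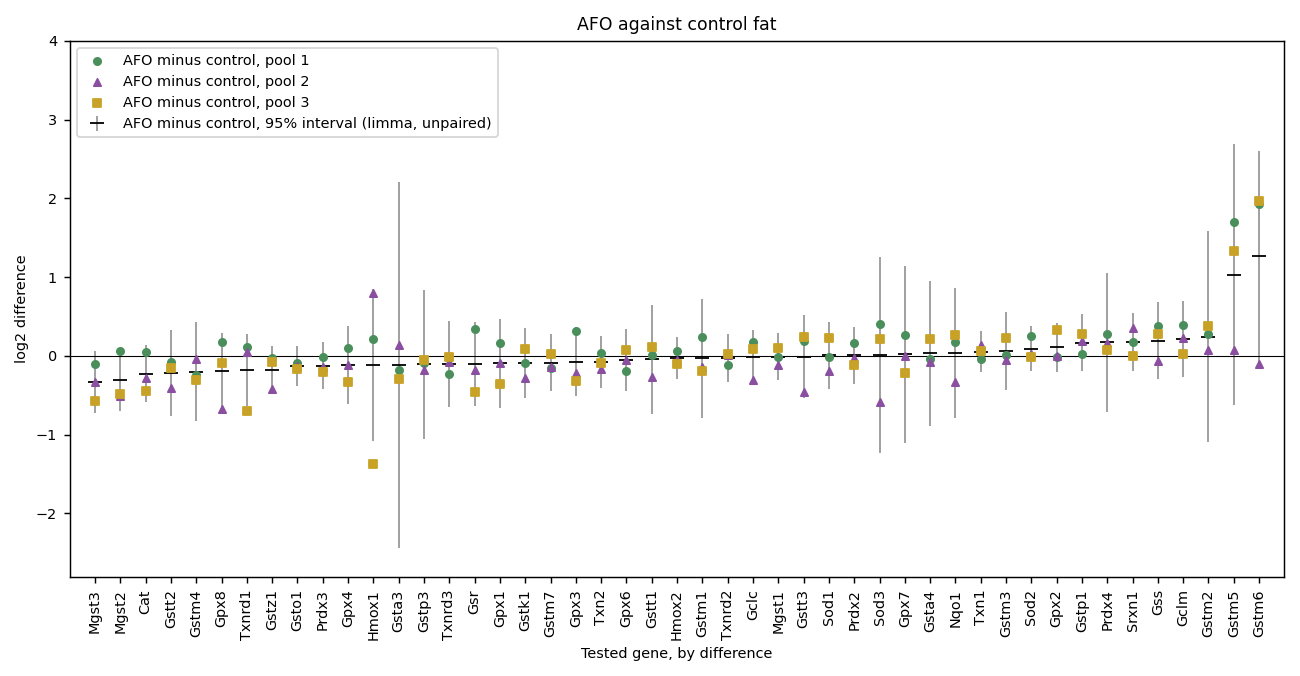
Log2 difference between AFO and control (y axis) of the 47 tested genes (x axis, in order of the difference), with the 95% interval of the unpaired limma fit and the difference within each pool. Gstm5 and Gstm6 stand highest through pools 1 and 3, where they differ by 1.33 to 1.97, while their pool 2 points lie at 0.070 and -0.11.

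In 3 of 3 pools, 6 members read higher in AFO than in control (Gclm, Gstm2, Gstm5, Gstp1, Prdx4 and Srxn1), which is 12.8% of those tested where 10.5% of all genes were. Another 8 were lower in 3 of 3 pools (Gstm4, Gsto1, Gstp3, Gstt2, Gstz1, Mgst3, Prdx3 and Txnrd3), 17.0% beside 12.8% of all genes. In Gsto1 and Gstz1 the 3 AFO values lay below the 3 control values, and no member had all AFO values above control. These 2 genes are 4.26% of the tested members, and groups without overlap were found in 3.5% of all tested genes (2.03% with AFO above and 1.47% with AFO below). The shares are close to those of all genes.

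The mu class glutathione transferases held the members with the largest differences. Gstm5 and Gstm6 were over 1 log2 unit higher in AFO than in control fat in pools 1 and 3. In pool 2 they lay within 0.11 of control. Neither passed the test over all 6 arrays. Both passed without pool 2, an omission chosen with earlier results of these data known. Gstm6 also entered the test only through its values in AFO pools 1 and 3. The 7 mu genes lie on mouse chromosome 3 in the order Gstm5, Gstm7, Gstm6, Gstm3, Gstm2, Gstm1 and Gstm4 by their starts in the RefSeq gene table (GRCm38.p6).

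The upstream sequences of the first 3 genes in that order are shown because these genes had probe sets that read high on the same 2 arrays. Each is the most upstream RefSeq window of its gene (GRCm38.p6), 250 bases that end just before the transcript start, printed on the gene's strand. Capitals mark the core of the antioxidant response element, TGACNNNGC, searched on both strands.
Gstm5, chr3:107895604-107895853, plus strand: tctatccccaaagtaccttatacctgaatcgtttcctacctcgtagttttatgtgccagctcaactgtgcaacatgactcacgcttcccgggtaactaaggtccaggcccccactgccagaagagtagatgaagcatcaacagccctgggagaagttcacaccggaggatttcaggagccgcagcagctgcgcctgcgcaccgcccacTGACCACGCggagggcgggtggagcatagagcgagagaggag
Gstm7, chr3:107931818-107932067, minus strand: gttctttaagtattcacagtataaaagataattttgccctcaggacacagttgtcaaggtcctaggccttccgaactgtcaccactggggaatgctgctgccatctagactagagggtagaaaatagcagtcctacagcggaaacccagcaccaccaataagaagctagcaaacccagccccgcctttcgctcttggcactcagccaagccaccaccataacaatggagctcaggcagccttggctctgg
Gstm6, chr3:107953467-107953716, minus strand: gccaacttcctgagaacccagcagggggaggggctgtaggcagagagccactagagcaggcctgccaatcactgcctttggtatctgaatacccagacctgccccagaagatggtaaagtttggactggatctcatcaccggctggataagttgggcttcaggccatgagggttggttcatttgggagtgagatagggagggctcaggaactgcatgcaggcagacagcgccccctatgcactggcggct

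The Gstm5 window holds 1 match, TGACCACGC on the gene's strand, starting 42 bases before the transcript start. The windows of Gstm7 and Gstm6 shown here hold 0, and a second Gstm7 window farther downstream holds 1, TGACAAAGC. Over all members 44 genes had a window, and 7 of their 60 windows (11.7%) held the core, those of Gclm, Gsta3, Gstm5, Gstm7, Mgst1, Sod1 and Txnrd1. The core occurred in 10.2% of all 32851 RefSeq windows of this length. Gclc, Gsr, Gsta4, Gstt2, Hmox1 and Sod3 had no entry.

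Gstm5, a mu enzyme best known from brain and testis, read 9.32, 8.24 and 8.97 in control and 11.02, 8.31 and 10.29 in AFO fat. AFO pools 1 and 3 lay above every control array, and AFO pool 2 lay at the level of control pool 2. The mean was 8.84 ± 0.55 (SD, n = 3) in control and 9.87 ± 1.40 (SD, n = 3) in AFO fat, a difference of 1.03 (SE 0.69) whose 95% interval spans -0.62 to 2.68. Single arrays moved it, to 0.46 without AFO pool 1, 0.73 without control pool 2 and 1.81 without AFO pool 2, and it passed the test in none of these.

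Gstm6 was high on the same 2 AFO arrays. The control arrays differed in layout, with pool 2 lying -0.014 from the mean of pools 1 and 3 for Gstm6 and -0.91 for Gstm5. It read 5.02, 4.85 and 4.71 in control and 6.95, 4.74 and 6.68 in AFO fat. Again only AFO pools 1 and 3 lay above the controls. The control mean of 4.86 lay below the filter (4.88), so Gstm6 entered the test only through those arrays. Its difference was 1.26 (SE 0.56), and the 95% interval spans -0.078 to 2.60, with 0.85 to 1.95 when single arrays were left out. Within pools 1, 2 and 3 Gstm6 differed by 1.93, -0.11 and 1.97, and Gstm5 by 1.70, 0.070 and 1.33.

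Gstm7 gave 2 different answers. Its probe set with the highest mean, the one the rule takes, read 6.28, 6.23 and 5.91 in control and 6.13, 6.09 and 5.93 in AFO fat, a difference of -0.088 (SE 0.15). The second probe set of Gstm7 had almost the same mean (6.05 against 6.10) and read 5.21, 4.68 and 5.24 in control and 8.73, 4.68 and 7.76 in AFO fat. On it AFO pools 1 and 3 stood 3.52 and 2.52 above the same control pools, and pool 2 differed by -0.0015. The mean difference was 2.01 (SE 0.96, 95% interval from -0.27 to 4.29), and limma over all 23144 kept probe sets gave an adjusted p of 0.999971. With the mean of its probe sets Gstm7 turned from -0.088 to 0.96. Mu genes are close copies of each other, so the share of each probe set that comes from a neighbour is uncertain.

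**Figure D3:**
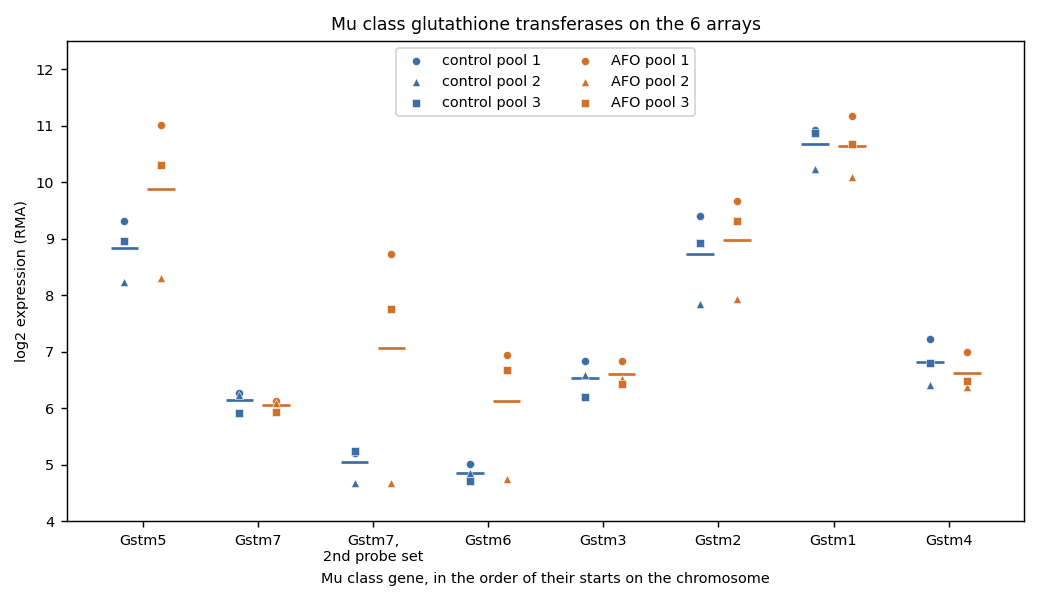
Log2 expression (y axis) of the 7 mu class genes in their order on the chromosome (x axis), with both probe sets of Gstm7, 1 point per array and a bar at each genotype's mean (n = 3). The orange circle and square (AFO pools 1 and 3) separate from control in Gstm5, the second Gstm7 probe set and Gstm6, the first 3 genes in the row, and lie among or near the control points in the other 4.

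The other 4 mu genes showed no such gap. Gstm3 differed by 0.060 (SE 0.21), Gstm2 by 0.24 (SE 0.56) and Gstm4 by -0.20 (SE 0.26). Without pool 2 Gstm3 stood at 0.12, Gstm2 at 0.33 and Gstm4 at -0.28, and the rule's Gstm7 probe set at -0.063. None of these was called there. Gstm1, the mu enzyme of liver and many other tissues, read 10.92, 10.23 and 10.86 in control and 11.16, 10.09 and 10.67 in AFO fat and differed by -0.029 (SE 0.31), a sign that turns to 0.0017 with quantile normalisation. Among the members, AFO pools 1 and 3 both stood at least 1 log2 unit above the same control pool in Gstm5 and Gstm6 alone, and 0.743% of all tested genes did so (0.513% with pool 2 within 0.5 besides).

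Without both pool 2 arrays Gstm5 and Gstm6 passed the test. Pool 2 was the pool in which both lay near control, and its omission was chosen with earlier results known. These calls are therefore no independent evidence. On the remaining 4 arrays Gstm5 differed by 1.51 (SE 0.25), and the limma adjusted p was 0.0459. Gstm6, with control values near the filter, differed by 1.95 (SE 0.19), and the limma adjusted p was 0.00374. It had passed the filter only through AFO pools 1 and 3, the arrays that give this difference. The calls of Gstm6 in these fits, and its part in the counts, are therefore no support. Gstm5 and Gstm6 were all of the members called there, and the same fit called 91 of all genes (0.676%), 89 of them higher (0.662%). With pool number as a block as well, the same 2 members were called among 2.01% of all genes. The second Gstm7 probe set differed by 3.02 without pool 2 (limma adjusted p of 0.00906 over all kept probe sets, of which 0.372% were called). In that fit over single probe sets Gstm5 missed the threshold, with a limma adjusted p of 0.0863, and with the block it passed at 0.00552, where 0.549% of all kept probe sets did. Without AFO pool 2 alone, Gstm6 was the member called (1.95, limma adjusted p of 0.0183, 0.201% of all genes called). With pool number as a replicate block over all 6 arrays 0 members passed, where 0.0149% of all genes did. Gstm5, Gstm6 and Mgst3 then had an unadjusted limma p under 0.05, as 4.32% of all genes did, and the SE was 0.30 for Gstm5 and 0.41 for Gstm6.

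Markers of epithelium were read beside these genes. Of 5 epithelial genes that were picked from these same arrays for being high in 2 AFO pools, and so are no independent evidence, 5 of 5 were higher in AFO pool 1, 1 of 5 in pool 2 and 5 of 5 in pool 3. The log2 of their summed linear level was 8.52 to 8.86 in control fat, against 12.04, 7.94 and 11.77 in the AFO pools. Cldn2, a claudin of leaky epithelia, read 5.09, 4.52 and 3.93 in control and 9.11, 4.51 and 8.44 in AFO fat. The 6 genes of epididymal epithelium that were found on the array behaved otherwise, with 6 of 6 higher in AFO pool 1 by a median of 3.28 and medians of -0.095 and 0.055 in pools 2 and 3. Their summed level was 7.11 to 7.42 in control fat and 7.18 to 10.52 in AFO fat, the highest in pool 1. Gpx5, the peroxidase outside the rule, is 1 of these 6 and read 5.69, 5.85 and 5.61 in control and 8.92, 5.73 and 5.62 in AFO fat. In pool 3 the epididymal list in AFO fat lay at the control level, and Gstm5 differed by 1.33 and Gstm6 by 1.97. The part that epithelial cells have in the mu class differences was not tested.

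The alpha class varied by pool in both genotypes. Gsta3, an alpha enzyme that in mouse liver inactivates aflatoxin epoxide, read 10.03, 6.97 and 9.35 in control and 9.85, 7.11 and 9.05 in AFO fat. Pool 2 lay -2.71 from the mean of the other pools in control and -2.34 in AFO fat, and the genotypes differed by -0.11 (SE 0.97). Its second probe set read 7.04, 4.29 and 6.38 in control and 6.85, 4.56 and 6.26 in AFO fat, with the same low pool 2 in both genotypes. Gsta4 read 8.14, 7.04 and 7.61 in control and 8.11, 6.96 and 7.83 in AFO fat, again lowest in pool 2, and differed by 0.033 (SE 0.38) between the genotypes. Gsta2, below the filter, read 3.97, 3.61 and 3.70 in control and 3.91, 3.53 and 3.28 in AFO fat.

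Pool 2 was low for other members too. Pool 2 lay below the mean of pools 1 and 3 in both genotypes for 34 of 47 members (72.3%), and for 47.8% of all tested genes. In 3 members (Gsta3, Gstm2 and Gpx7) it lay at least 1 log2 unit below in both, which is 6.38% beside 2.42% of all genes, and in 0 members at least 1 above, beside 2.07%. Gstm2 read 9.39, 7.85 and 8.93 in control and 9.67, 7.93 and 9.31 in AFO fat. Gpx7, a peroxidase of the endoplasmic reticulum, read 7.95, 6.82 and 8.07 in control and 8.22, 6.82 and 7.86 in AFO fat. Prdx4, the peroxiredoxin of the same compartment, lay -0.94 and -0.95 from the other pools in control and AFO fat. For Gstm5 these gaps were -0.91 and -2.35. Sod3, the secreted superoxide dismutase of the extracellular matrix, read 10.14, 9.14 and 9.47 in control and 10.54, 8.55 and 9.69 in AFO fat, with a pool 2 gap of -0.67 in control and -1.56 in AFO fat. Gstp3, a pi class enzyme, ran the other way, with 4.91, 5.93 and 4.81 in control and 4.81, 5.75 and 4.76 in AFO fat. Of the marker lists, the mesothelial genes also read low in pool 2, with a median level of 5.24 in control and 4.67 in AFO pool 2 against 8.14 to 8.29 elsewhere, and B cell genes read high, with medians of 8.89 and 9.63 against 5.28 to 6.15 elsewhere. The labels define no group by pool, so the gaps are given with no test, and the part of those cells in them was not tested.

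**Figure D4:**
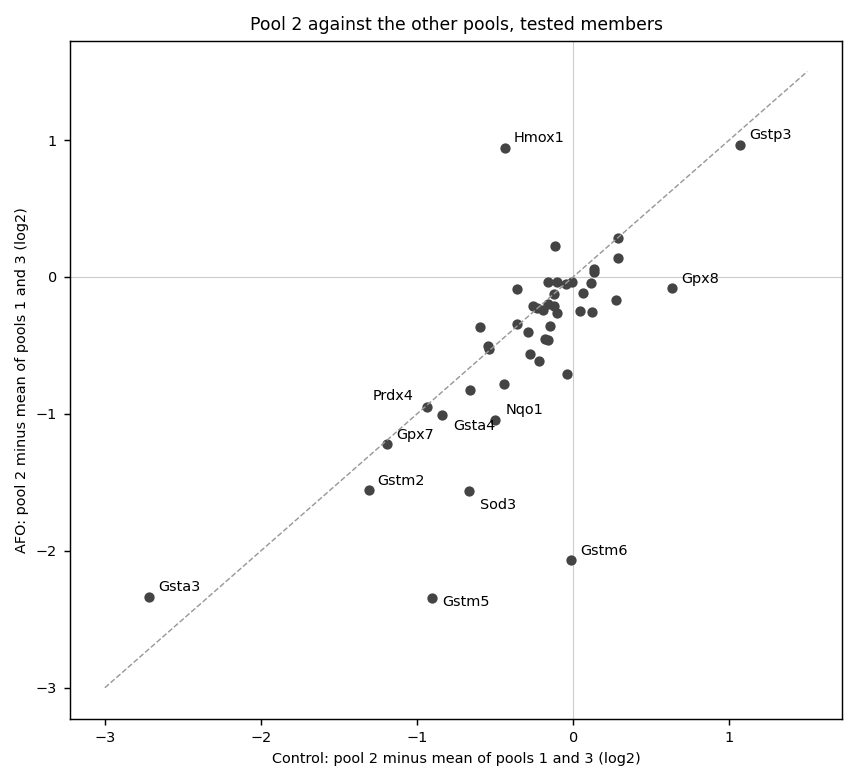
Pool 2 minus the mean of pools 1 and 3 (log2) in control (x axis) and AFO fat (y axis) for the 47 tested genes, with the line of equal gaps dashed. Gsta3, Gstm2, Gpx7, Prdx4 and Gstp3 lie near the line, with like gaps in both genotypes, and Gstm5 and Gstm6 lie far below it.

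The remaining transferases outside the microsomal class differed little. Gstp1, the pi class enzyme of most tissues, read 11.23, 10.81 and 10.90 in control and 11.25, 11.01 and 11.18 in AFO fat and differed by 0.17 (SE 0.15). In the theta class Gstt1 differed by -0.045 (SE 0.29), Gstt2, at 8.88, 8.80 and 9.28 in control and 8.80, 8.39 and 9.12 in AFO fat, by -0.22 (SE 0.23), and Gstt3 by -0.0079 (SE 0.22), and Gstt3 turns positive when arrays are centred on their medians. Without pool 2 Gstt1 stood at 0.066 and Gstt3 at 0.22. Gsto1, an omega enzyme that reduces dehydroascorbate, read 10.39, 10.41 and 10.52 in control and 10.30, 10.27 and 10.34 in AFO fat. All 3 AFO values lay below all control values, with a mean difference of -0.13 (SE 0.11). On its second probe set the genotypes overlapped and differed by -0.041, with 0.024, -0.18 and 0.036 in the pools. Gstz1, which isomerises maleylacetoacetate in tyrosine breakdown, read 10.45, 10.60 and 10.50 in control and 10.42, 10.17 and 10.42 in AFO fat, again without overlap, and differed by -0.18 (SE 0.12). Most of this came from pool 2, with -0.026, -0.42 and -0.081 in the pools, and without pool 2 Gstz1 stood at -0.053. Gstk1, the kappa enzyme of mitochondria and peroxisomes, differed by -0.095 (SE 0.18). Gstt4 and Gsto2 lay below the filter. Gstt4 read 4.46, 4.30 and 4.38 in control and 4.37, 4.21 and 4.09 in AFO fat, and Gsto2 read 4.79, 4.31 and 4.66 in control and 4.83, 3.80 and 4.41 in AFO fat. None of the tested genes passed limma's test, and the interval of Gstz1 ran from -0.48 to 0.12.

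The microsomal transferases Mgst3 and Mgst2 held the largest negative differences of the tested members. Mgst3, a membrane enzyme with transferase and peroxidase activity, read 9.73, 9.58 and 9.68 in control and 9.63, 9.24 and 9.11 in AFO fat. It read lower in AFO fat in 3 of 3 pools, with differences of -0.098, -0.34 and -0.57, and its mean difference of -0.33 (SE 0.16) had a 95% interval from -0.73 to 0.061. Mgst2, which can make leukotriene C, read 8.32, 8.59 and 8.78 in control and 8.38, 8.09 and 8.29 in AFO fat and differed by -0.31 (SE 0.17). Mgst1, the microsomal enzyme abundant in liver, read 12.94, 12.87 and 13.00 in control and 12.93, 12.75 and 13.10 in AFO fat and differed by -0.011 (SE 0.12), which turns to 0.034 with quantile normalisation. For Mgst3 the standard error with pool number as a block was 0.12, and its limma adjusted p was 0.990.

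Glutathione peroxidases lay within the spread of the arrays. Gpx1, the cytosolic selenoenzyme, read 12.68, 12.20 and 12.81 in control and 12.83, 12.12 and 12.45 in AFO fat and differed by -0.096 (SE 0.24). Gpx3, the secreted peroxidase of plasma that fat also makes, read 12.43, 12.34 and 12.54 in control and 12.74, 12.12 and 12.22 in AFO fat. In pool 1 it was 0.32 higher in AFO fat and in pools 2 and 3 it differed by -0.21 and -0.32, so the pools did not share a sign. Gpx4, which reduces lipid hydroperoxides in membranes, read 11.44, 11.09 and 11.21 in control and 11.54, 10.98 and 10.87 in AFO fat and differed by -0.12 (SE 0.21). Gpx8, a membrane peroxidase of the endoplasmic reticulum, read 8.67, 9.43 and 8.92 in control and 8.84, 8.75 and 8.83 in AFO fat, where control pool 2 was the highest array. It differed by -0.20 (SE 0.21), and by 0.042 without pool 2. Gpx2, the peroxidase of gut epithelium, and Gpx6, found in olfactory epithelium, read 5.05 to 5.50 on all arrays.

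Peroxiredoxins, thioredoxins and their reductases differed by at most 0.18 between the genotypes. Prdx2 differed by 0.0074 (SE 0.15), the mitochondrial Prdx3 by -0.12 (SE 0.13) and Prdx4 by 0.17 (SE 0.37). Srxn1, which restores overoxidised peroxiredoxins, read 7.18, 6.83 and 7.19 in control and 7.36, 7.18 and 7.19 in AFO fat and differed by 0.18 (SE 0.15). Txn1, the cytosolic thioredoxin, read 11.19, 11.00 and 11.14 in control and 11.15, 11.14 and 11.20 in AFO fat, with a 95% interval of the difference from -0.21 to 0.31. Txn2, the mitochondrial thioredoxin, differed by -0.072 (SE 0.14). Of the reductases, Txnrd2 differed by -0.024 (SE 0.13) and Txnrd3 by -0.10 (SE 0.23). Txnrd1 read 8.53, 8.53 and 8.76 in control and 8.65, 8.58 and 8.06 in AFO fat, with AFO pool 3 the lowest array, and differed by -0.18 (SE 0.19).

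Catalase and the superoxide dismutases likewise did not pass. Cat, the peroxisomal enzyme that splits hydrogen peroxide, read 12.71, 12.62 and 12.78 in control and 12.77, 12.34 and 12.33 in AFO fat. AFO pools 2 and 3 were the lowest arrays, while AFO pool 1 matched control, and the difference was -0.22 (SE 0.15) with a 95% interval from -0.59 to 0.14. Without AFO pool 1 it was -0.37. Within pools 1, 2 and 3 Cat differed by 0.055, -0.28 and -0.45. Fat cell markers were also mostly lower in AFO pools 2 and 3, but lowest in pool 2. Of 8 markers 4, 0 and 1 were higher in AFO fat in pools 1, 2 and 3, with medians of 0.017, -0.40 and -0.20. Their part in the Cat values was not tested. The second Cat probe set differed by -0.060, with 0.021, -0.18 and -0.019 in the pools. Sod1, the copper-zinc enzyme of the cytosol, differed by 0.0055 (SE 0.18), Sod2, the manganese enzyme of mitochondria, by 0.089 (SE 0.12), and Sod3 by 0.011 (SE 0.52), or 0.31 without pool 2. Over the 4 kept probe sets of Sod2 the difference ran from -0.29 to 0.089. Probe sets above the filter disagreed in sign for 12 members (Gclc, Gclm, Gss, Gstm1, Gstm7, Prdx4, Sod1, Sod2, Sod3, Srxn1, Txn2 and Txnrd2), and outside Gstm7 these differences stayed between -0.29 and 0.21.

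Genes of glutathione synthesis and the best known targets of Nfe2l2 did not move together over the 3 pools. In pool 1 Gclc, Gclm, Gss, Gsr, Nqo1, Hmox1, Srxn1 and Txnrd1 all read higher in AFO fat, by 0.12 to 0.39. In that pool 29 of 47 tested members and 7497 of all 13453 genes read higher. In pools 2 and 3 the signs of these genes were mixed. Gclc, the catalytic subunit of glutamate-cysteine ligase, read 8.32, 8.65 and 8.44 in control and 8.50, 8.35 and 8.53 in AFO fat and differed by -0.011 (SE 0.14), with a sign that turns to 0.0082 under quantile normalisation. Gclm, its modifier subunit, read 7.66, 7.24 and 7.55 in control and 8.04, 7.47 and 7.58 in AFO fat and was higher in AFO fat in 3 of 3 pools, by 0.39, 0.22 and 0.030, a mean of 0.21 (SE 0.20). Gss, glutathione synthetase, differed by 0.19 (SE 0.21), or 0.33 without pool 2, and Gsr, glutathione reductase, by -0.098 (SE 0.22). Nqo1, a quinone reductase, read 6.28, 5.56 and 5.84 in control and 6.45, 5.24 and 6.10 in AFO fat and differed by 0.036 (SE 0.35), or 0.22 without pool 2. Hmox1, the inducible haem oxygenase that macrophages express strongly, read 7.41, 7.21 and 7.88 in control and 7.63, 8.01 and 6.50 in AFO fat. Its pools disagreed, with differences of 0.22, 0.80 and -1.37, so that the 95% interval of its difference of -0.12 (SE 0.40) ran from -1.08 to 0.85. Without pool 2 Hmox1 stood at -0.58. Macrophage markers were higher in AFO fat in 3 of 7, 6 of 7 and 1 of 7 genes in pools 1, 2 and 3, with medians of -0.21, 0.13 and -0.26, and summed levels of 13.24 to 13.51 in control and 13.10 to 13.44 in AFO fat. Their part in the Hmox1 values was not tested. Hmox2, the constitutive form, read between 8.97 and 9.08 on all arrays and differed by -0.030 (SE 0.11).

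The wider list of regulators, glutathione turnover, NADPH supply, thiol repair, detoxification, iron, selenium, export and oxidant sources held 110 genes on the array, of which 104 were tested. By limma's unpaired test 0 passed in either direction and 0 had an unadjusted p under 0.05, and 46 read higher and 58 lower (median -0.018). Nfe2l2 itself read 9.38, 9.32 and 9.46 in control and 9.53, 9.05 and 9.49 in AFO fat and differed by -0.034 (SE 0.16). Keap1 differed by 0.013 (SE 0.13), and Slc7a11, the cystine importer, by 0.19 (SE 0.25). Of 9 regulators 8 read higher (88.9%, beside 45.7% of all tested genes), and 7, 4 and 6 did in pools 1, 2 and 3. The largest of these differences was 0.24, for the autophagy adaptor Sqstm1, beside 0.16 (SE 0.46) for the small Maf protein Maff. The AFO values of Sqstm1 all lay above control. Groups without overlap were found in 6 of the 104 tested genes of the wider list (5.77%), beside 3.5% of all tested genes. In the detoxification group 1 of 11 read higher (9.09%) and 10 lower, while within pools 1, 2 and 3 the number higher was 4, 6 and 2. Among them were the glyoxalase Hagh at -0.21 (SE 0.13) and the epoxide hydrolase Ephx1 at 0.23 (SE 0.18).

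In the other sub-groups of the wider list the named genes other than Ptgds differed by less than 0.5. In amino acid supply the glutamine transporter Slc1a5 differed by -0.24 (SE 0.13) and Slc1a4 by 0.16 (SE 0.15). In glutathione turnover Oplah, which opens oxoproline, differed by -0.46 (SE 0.26) and Ggct by -0.11 (SE 0.19). In NADPH supply Idh1 differed by -0.23 (SE 0.17) and Taldo1 by -0.22 (SE 0.12). In thiol repair the methionine sulfoxide reductases Msrb3 and Msra differed by -0.35 (SE 0.26) and -0.16 (SE 0.16). In iron handling Fech, which makes haem, differed by -0.27 (SE 0.15) and the transferrin receptor Tfrc by 0.26 (SE 0.22). The plasma selenoprotein gene Selenop differed by -0.10 (SE 0.10) and Selenow by 0.16 (SE 0.17), the exporters Abcc5 and Abcg2 by -0.12 (SE 0.12) and -0.22 (SE 0.30), and the oxidases Maob and Aox1 by -0.22 (SE 0.14) and -0.17 (SE 0.21). Ptgds, a prostaglandin synthase grouped with the transferase-like genes, read 6.88, 6.59 and 6.34 in control and 8.08, 5.99 and 8.23 in AFO fat, so AFO pools 1 and 3 were high as in Gstm5 and Gstm6. It differed by 0.83 (SE 0.59) over all 6 arrays and was not called. It was the only 1 of the 104 tested genes of the wider list called without both pool 2 arrays, where 0.676% of all genes were. Its difference there was 1.54 (limma adjusted p of 0.0175). Gdap1 of the same group differed by 0.26 (SE 0.22) over all 6 arrays.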

How the data were processed

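The deposited values are log2 expression levels that, per the submitters' processing notes, the authors made with RMA in Affymetrix Expression Console 1.4. RMA equalises the distribution of the arrays and shrinks differences of dim genes, so these values cannot show a shift of most genes at once. Biotinylated cRNA came from a 3' in vitro transcription kit, per the labels' protocols, and the build used for the probe design is not given in the sources used here. Probe sets of 1 symbol entered when their mean reached the 40th percentile (4.88), and each gene was read from the probe set with the highest mean.

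The genotypes were compared without pairing in limma 3.58.1 (R 4.3.3), with lmFit and eBayes (trend on), Benjamini-Hochberg adjustment over all 13453 genes and calls at an adjusted p under 0.05. The fit was tested on simulated arrays with independent noise and no effect shared by a pool, whereas pool 2 stands apart in these data. Both genotypes carry pool numbers 1 to 3 in the labels. Arrays of equal number deviated together (correlations of 0.594, 0.799 and 0.589 over genes). Unlike numbers of pools 1 and 3 also did (0.441 and 0.362), and pool 2 correlated negatively with both. Deviations were taken from the mean of the 3 arrays of a genotype, so they cancel within it. A strong pool 2 axis therefore raises the values among pools 1 and 3 and makes those with pool 2 negative. These correlations cannot show what arrays of equal number share. Since all 3 equal pairs exceed 0.1, a paired fit, with pool number as a replicate block, was run too. It called 2 genes and no member.

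The members, the wider list, the marker lists and the alternatives were chosen with earlier results of these data known. The fits of all probe sets singly were added after seeing the data. Genes were named in full for their signal, the size of their difference, non-overlapping groups, a pool 2 gap, a call in any fit, disagreeing probe sets, or as known Nfe2l2 targets, and in the wider list as the 2 of each sub-group with the smallest p plus Nfe2l2, Keap1 and Slc7a11. All 50 members matched the RefSeq gene table by gene ID.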

Additional observations from a re-analysis of the deposited data

How the results depend on the processing

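The count of called members stayed at 0 in the fit with a replicate block, without a filter, with a filter at the 60th percentile (5.97), with both other choices of probe set, with quantile normalisation, median centring, no variance trend and array weights. Leaving out 1 array gave 0 to 1 called members, 0 to 27 called genes in all, and a members' median of -0.13 to 0.065. Over all genes the block called 2, and no call of a member or of the wider list changed with it. Without both pool 2 arrays 2 members, 91 genes in all and 1 gene of the wider list passed, and 2, 270 and 1 with the block as well. Of these 2 members, Gstm6 had passed the filter only through AFO pools 1 and 3. With all kept probe sets tested singly, the block called 2 probe sets. Omitting pool 2 there gave 2 of members, 86 in all and 2 of the wider list, and 3, 127 and 2 with the block. The cause of these changes was not tested.

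Many differences changed sign with the processing, none of them called before or after. With array weights Gclc stood at 0.15, Gpx3 at 0.044, Gpx8 at 0.10, Gsr at 0.022, Gsta4 at -0.18, Gstm3 at -0.12, Gstt3 at 0.16, Hmox2 at 0.013, Mgst1 at 0.025, Nqo1 at -0.030, Sod3 at -0.049 and Txn1 at -0.0095. With the mean of the probe sets Gclc stood at 0.0056, Gstm1 at 0.042, Gstm7 at 0.96, Sod1 at -0.0059, Sod2 at -0.12 and Sod3 at -0.10. With plain probe sets preferred Gclc stood at 0.022, Gstm1 at 0.036, Sod1 at -0.044 and Srxn1 at -0.022. With quantile normalisation Gclc stood at 0.0082, Gstm1 at 0.0017 and Mgst1 at 0.034. With median centring Gstt3 stood at 0.00017. Without pool 2, with or without the block, Gclc stood at 0.14, Gpx8 at 0.042, Gstm1 at 0.027, Gstt1 at 0.066, Gstt3 at 0.22 and Mgst1 at 0.043. When each array was left out in turn, 30 of 47 tested members took both signs. The ranges were -0.088 to 0.081 for Gclc, -0.28 to 0.079 for Gpx1, -0.26 to 0.046 for Gpx3, -0.32 to 0.013 for Gpx4, -0.17 to 0.039 for Gpx6, -0.38 to 0.43 for Gpx7, -0.37 to 0.014 for Gpx8 and -0.32 to 0.036 for Gsr. Further ranges were -1.02 to 0.67 for Gsta3, -0.25 to 0.37 for Gsta4, -0.25 to 0.057 for Gstk1, -0.29 to 0.25 for Gstm1, -0.19 to 0.76 for Gstm2, -0.11 to 0.21 for Gstm3, -0.40 to 0.0097 for Gstm4 and -0.43 to 0.25 for Gstp3. They were -0.26 to 0.21 for Gstt1, -0.16 to 0.23 for Gstt3, -0.43 to 0.32 for Hmox1, -0.097 to 0.078 for Mgst1, -0.22 to 0.38 for Nqo1, -0.12 to 0.088 for Prdx2, -0.14 to 0.49 for Prdx4 and -0.16 to 0.16 for Sod1. The last were -0.46 to 0.53 for Sod3, -0.00050 to 0.094 for Txn1, -0.12 to 0.024 for Txn2, -0.29 to 0.0054 for Txnrd1, -0.059 to 0.043 for Txnrd2 and -0.29 to 0.065 for Txnrd3. The cause was not tested. No background signal was used here, so a level near the filter may be background, and dim members such as Gpx2 and Gpx6 carry little information. The control values of Gstm6 also lay near the filter.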
